A study of Homo sapiens with 10 samples.

Results

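The genes described here are 10 genes of the integrated stress response that centre on the transcription factor ATF4: *ATF4*, *DDIT3*, *ATF3*, *TRIB3*, *ASNS*, *CHAC1*, *SESN2*, *DDIT4*, *PPP1R15A* and *SLC7A11*. They were chosen by symbol, with earlier results of these data known. All 10 were found among the 59386 genes listed, and all 10 were among the 16899 genes with enough counts to be tested. RNA came from VCaP cells, an epithelial line from a prostate cancer. Cells were transfected with 30 pmol of siRNA A or siRNA B against *SMARCA4* or of siRNA A or siRNA C against *SMARCA1*, and RNA was taken 72 h later. Each of these 4 siRNAs and the control had 2 libraries, 10 libraries in all. *SMARCA4* and *SMARCA1* encode the ATPases of SWI/SNF and ISWI chromatin remodelers. What the controls were transfected with, and how much of it, is not stated in the labels, so a response to siRNA transfection and a response to loss of the target cannot be told apart in comparisons with the control. They also do not say whether replicate libraries came from separate cultures, and p-values then measure the spread between these libraries, which may be technical.

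In the integrated stress response, kinases that sense amino acid shortage, unfolded proteins, viral RNA or haem shortage phosphorylate the initiation factor eIF2. Bulk translation falls, while the *ATF4* message is translated more because of short reading frames ahead of its coding sequence. ATF4 then pairs with other bZIP factors and switches on genes for amino acid supply, for brakes on mTORC1, for the factors CHOP (*DDIT3*) and ATF3, and for GADD34 (*PPP1R15A*), which brings a phosphatase back to eIF2. RNA counts show the *ATF4* message and its targets, not eIF2 phosphorylation or ATF4 protein.

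Values are CPM, counts scaled to the size of each library with TMM factors, and comparisons of levels between genes are made per kilobase of exon. Libraries held between 23898545 and 34667965 counts, and the upper limit for a gene without counts, set at 3 counts, was 0.0865 to 0.126 CPM depending on the library (counting error only). *SMARCA4* lay between 13.3 and 25.2 CPM with its own siRNAs against 242.2 and 267.6 in the controls. *SMARCA1* lay between 1.75 and 3.40 CPM with its siRNAs against 32.3 and 31.5. In *SMARCA4* knockdown *SMARCA1* rose to between 57.4 and 83.8 CPM (log2 fold change 1.07 ± 0.18, edgeR adjusted p 0.001), so that between the knockdowns its level differed 23.8-fold. The 2 libraries of *SMARCA1* siRNA A differed most from each other, with a chi-square per gene of 60.6 against 6.39 for the controls. It was 42.9 for *SMARCA4* siRNA A, 22.6 for *SMARCA4* siRNA B and 3.8 for *SMARCA1* siRNA C. The cells had the 9 epithelial and prostate markers examined, at a summed 5175.3 to 7660.6 CPM. The 10 stromal and immune markers summed to between 7.28 and 20.7 CPM, with *PTPRC*, *CD3E* and *CD68* at 3 counts or fewer in every library. Same-strand exons of *RP11-186B7.4* cover 81.6% of the exon bases of *CD68*, so its few counts cannot be read as absence. Of the first list 5 genes were higher and none lower in *SMARCA4* knockdown, and 3 were higher and 2 lower in *SMARCA1* knockdown. Of the 7 genes tested in the second list, 1 was higher in *SMARCA4* knockdown, and 1 was higher and 2 lower in *SMARCA1* knockdown. Over all tested genes 22.8% were higher and 22.3% lower in *SMARCA4* knockdown, and 23.8% and 23% in *SMARCA1* knockdown. With 1 library left out, the first list had 4 to 6 and 3 to 6 genes called in the 2 knockdowns (3 in *SMARCA1* knockdown without either control or without replicate 2 of siRNA C). The second had 0 to 1 and 1 to 3 (0 in *SMARCA4* knockdown without control replicate 1, replicate 1 of either *SMARCA4* siRNA or replicate 2 of *SMARCA1* siRNA C, and 1 in *SMARCA1* knockdown without control replicate 2). The summed level of 10 interferon-stimulated genes was 218.8 to 221.2 CPM in the controls, 12846.8 to 32790.2 with *SMARCA4* siRNAs and 17973.6 to 33715.2 with *SMARCA1* siRNAs. All 10 were called higher in each knockdown. They therefore moved with each difference from the control given below, and their part in it was not tested.

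The 10 genes did not move as 1 block. *ATF4*, *ATF3*, *CHAC1* and *PPP1R15A* rose in both knockdowns and with each of the 4 siRNAs. *SESN2* rose in both, and more with *SMARCA1* than with *SMARCA4* siRNAs, though siRNA A against *SMARCA4* did not pass by itself. *DDIT4* and *TRIB3* rose in *SMARCA1* knockdown, did not pass the test in *SMARCA4* knockdown, and differed between the knockdowns. For *TRIB3* siRNA C against *SMARCA1* passed by itself and siRNA A did not. *DDIT3*, *ASNS* and *SLC7A11* did not pass the test in either knockdown. The plot of the levels in each library shows these patterns gene by gene.

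**Figure D1:**
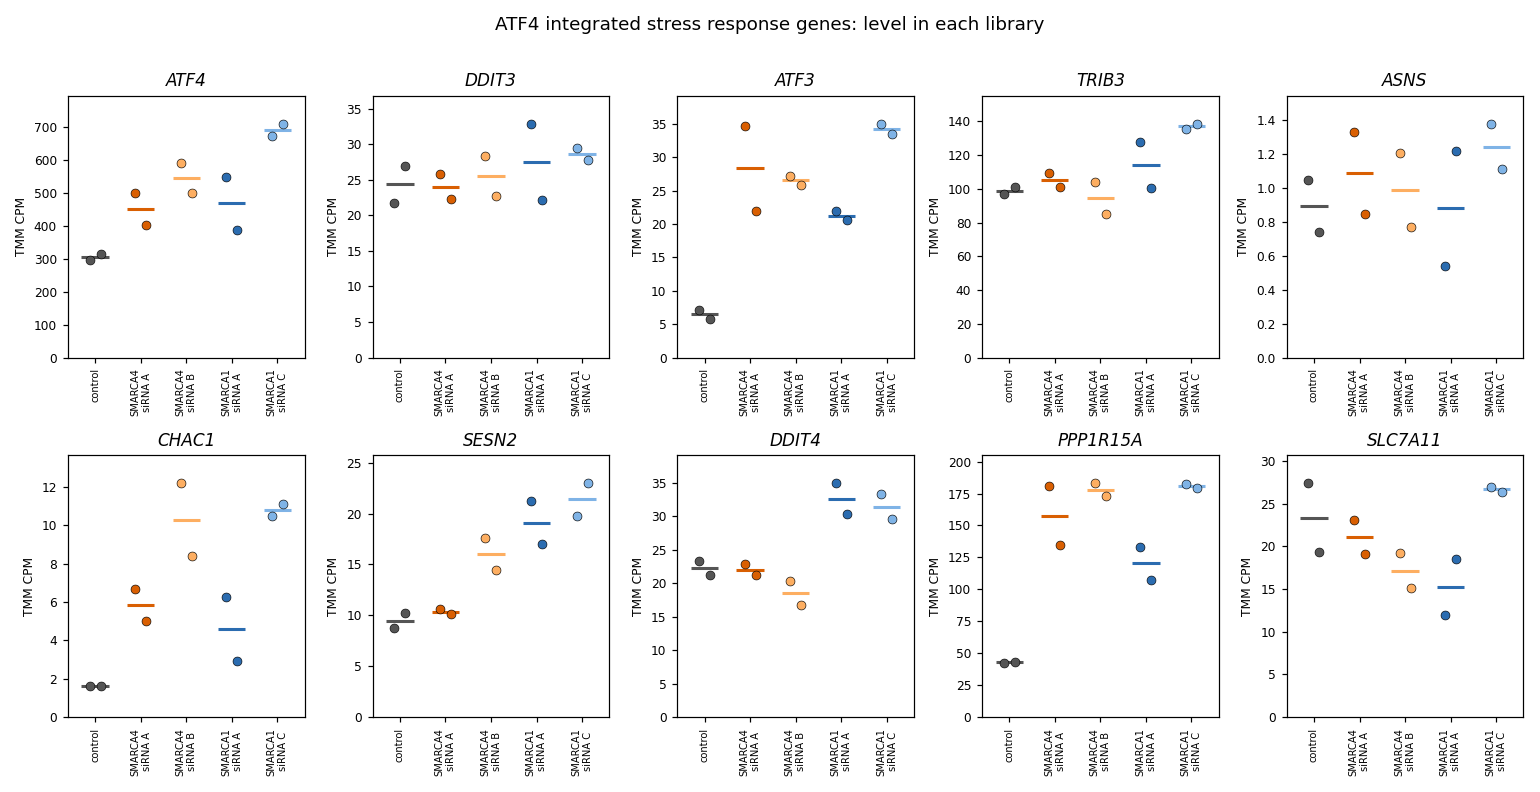
Level of each of the 10 genes (y axis, TMM-scaled CPM, each panel from 0) in the 10 libraries, by control and siRNA (x axis), with points for libraries and a bar for the mean of the 2. The control libraries of *PPP1R15A* sit at 42.6 and 43.4 CPM and every knockdown library at 107.6 or more, while for *DDIT3* the knockdown libraries (22.1 to 32.9) surround the controls (21.8 and 27.0).

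*ATF4*, the activator of the response, was the most abundant of the 10 messages in the controls at a mean of 117.2 RPKM, ahead of *TRIB3* (30.1), *DDIT3* (18.7) and *PPP1R15A* (14). It lies on chromosome 22 from 39519695 to 39522683 on the plus strand (GRCh38). Its level was 298.1 and 314.6 CPM in the controls, 500.0 and 403.2 with *SMARCA4* siRNA A, 591.7 and 501.3 with siRNA B, 548.3 and 389.2 with *SMARCA1* siRNA A, and 673.9 and 711.1 with siRNA C. Every knockdown library was above both controls. Ordered by mean, the groups ran from control (306.3) through *SMARCA4* siRNA A (451.6), *SMARCA1* siRNA A (468.7) and *SMARCA4* siRNA B (546.5) to *SMARCA1* siRNA C (692.5). Of the 3 middle groups, *SMARCA1* siRNA A overlapped each *SMARCA4* siRNA, and siRNA C against *SMARCA1* stood above them. The log2 fold change was 0.70 ± 0.15 (SE) in *SMARCA4* knockdown (4 against 2 libraries, edgeR adjusted p 0.0042) and 0.90 ± 0.15 in *SMARCA1* knockdown (edgeR adjusted p 0.0012), 1.62-fold and 1.86-fold. In bulk RNA, a higher level per cell and a larger share of cells with the message cannot be told apart. The processed copy *ATF4P3* had 13 to 52 counts, between 0.157% and 0.219% of those of *ATF4*.

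*ATF3*, a bZIP factor that ATF4 induces, changed more, from a low level. It was at 7.15 and 5.83 CPM in the controls, 34.6 and 22.0 with *SMARCA4* siRNA A, 27.2 and 25.9 with siRNA B, 21.9 and 20.6 with *SMARCA1* siRNA A, and 35 and 33.4 with siRNA C. The lowest knockdown library was thus well above the higher control. The rise was 2.08 ± 0.19 on the log2 scale with *SMARCA4* siRNAs (edgeR adjusted p 3.1e-05) and 2.06 ± 0.19 with *SMARCA1* siRNAs (edgeR adjusted p 5.5e-05), about 4.22-fold and 4.16-fold. Of all tested genes, 3.77% and 4.74% had a higher log2 fold change in the same comparison. The knockdowns differed by 0.02, with a 95% interval from -0.28 to 0.32.

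*DDIT3*, which encodes the factor CHOP and is a standard marker of this response, did not follow. It was at 21.8 and 27.0 CPM in the controls, 25.8 and 22.3 with *SMARCA4* siRNA A, 28.4 and 22.7 with siRNA B, 32.9 and 22.1 with *SMARCA1* siRNA A, and 29.5 and 27.8 with siRNA C. The groups overlapped in both comparisons. The log2 fold change was 0.02 in *SMARCA4* knockdown (95% interval -0.36 to 0.40) and 0.20 in *SMARCA1* knockdown (-0.18 to 0.59), intervals that hold no change and a moderate rise alike. Without replicate 2 of *SMARCA1* siRNA A the second value was 0.36 (edgeR adjusted p 0.04). Exons of *MARS1* and *MBD6* on the other strand cover 31.6% of the exon bases of *DDIT3*. The libraries were strand-specific, but the strand setting of the counting is not given in the sources used here. Of 809 genes whose exons are all covered by exons on the other strand, 216 had 10 counts or more over the libraries. Such genes would have no counts if the strand were ignored and reads shared between genes were dropped. How shared reads were counted is not given either.

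*PPP1R15A* encodes GADD34, the inducible subunit that returns a phosphatase to eIF2 and so ends the response. It was at 42.6 and 43.4 CPM in the controls, 180.9 and 134.3 with *SMARCA4* siRNA A, 183.2 and 173.1 with siRNA B, 133.0 and 107.6 with *SMARCA1* siRNA A, and 182.7 and 179.4 with siRNA C. All 8 knockdown libraries were far above the controls, which differed little from each other. The rise was 1.96 ± 0.14 with *SMARCA4* siRNAs (3.9-fold, edgeR adjusted p 1e-05) and 1.78 ± 0.14 with *SMARCA1* siRNAs (3.43-fold, edgeR adjusted p 2.7e-05), and it had the smallest adjusted p of the 10 genes in each comparison. *PPP1R15B*, which encodes the constitutive subunit of the same phosphatase, had a log2 fold change of -0.17 (95% interval -0.49 to 0.16) and 0.18 (-0.15 to 0.51) and did not pass the test.

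*TRIB3*, a pseudokinase that dampens ATF4 and AKT signalling, was at 96.7 and 101.3 CPM in the controls, 109.6 and 101.2 with *SMARCA4* siRNA A, 104.1 and 84.8 with siRNA B, 128.0 and 100.7 with *SMARCA1* siRNA A, and 135.5 and 138.6 with siRNA C. The *SMARCA4* libraries lay on both sides of the controls, and *SMARCA1* siRNA C was the 1 group with both libraries clearly above them. In *SMARCA4* knockdown the log2 fold change was 0.01 (95% interval -0.26 to 0.28). In *SMARCA1* knockdown it was 0.34 ± 0.12 (edgeR adjusted p 0.045), and the call was lost without either control, without either siRNA C library (edgeR adjusted p from 0.087 to 0.18 over these 4) and when only the libraries compared were fitted (edgeR adjusted p 0.052). With siRNA A alone it was 0.21 (edgeR adjusted p 0.28) and with siRNA C alone 0.47 (edgeR adjusted p 0.021).

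*CHAC1* encodes an enzyme that breaks down glutathione and is among the genes most responsive to ATF4. It was scarce in the controls, at 1.59 and 1.60 CPM (38 and 43 counts). It rose to 6.67 and 5.0 with *SMARCA4* siRNA A, 12.2 and 8.39 with siRNA B, 6.26 and 2.92 with *SMARCA1* siRNA A, and 10.5 and 11.1 with siRNA C. Every knockdown library was above the controls, and replicate 2 of *SMARCA1* siRNA A was the lowest of the 8. The log2 fold change was 2.28 ± 0.32 with *SMARCA4* siRNAs (4.86-fold, edgeR adjusted p 0.00038) and 2.14 ± 0.32 with *SMARCA1* siRNAs (4.42-fold, edgeR adjusted p 0.00061), the largest of the 10 genes in both comparisons.

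*SLC7A11*, the cystine transporter that feeds glutathione synthesis, did not rise with it. It was at 27.4 and 19.3 CPM in the controls, 23.1 and 19.1 with *SMARCA4* siRNA A, 19.2 and 15.1 with siRNA B, 11.9 and 18.5 with *SMARCA1* siRNA A, and 26.9 and 26.4 with siRNA C. The controls were more CPM apart than any other pair, and the groups overlapped them except for siRNA B of *SMARCA4* and siRNA A of *SMARCA1*, whose libraries were below both. The log2 fold change was -0.29 in *SMARCA4* knockdown (95% interval -0.73 to 0.14) and -0.21 in *SMARCA1* knockdown (-0.65 to 0.22).

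*ASNS*, asparagine synthetase, had 15 to 43 counts per library, 0.542 to 1.38 CPM, and a log2 fold change of 0.22 in each knockdown with 95% intervals from -0.62 to 1.06 and 1.07. In the annotation the counts were made on, 49.3% of its exon bases and 96.1% of its coding bases also lie in same-strand exons of another listed gene, *RP5-1090P18.1*, and how shared reads were counted is not given in the sources used here. The counts therefore cannot be read as its level.

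*SESN2* and *DDIT4* (also called REDD1) encode inhibitors of mTORC1, the kinase complex that couples growth to amino acids. *SESN2* was at 8.74 and 10.2 CPM in the controls, 10.6 and 10.1 with *SMARCA4* siRNA A, 17.6 and 14.5 with siRNA B, 21.2 and 17.0 with *SMARCA1* siRNA A, and 19.8 and 23.0 with siRNA C. The siRNA A libraries against *SMARCA4* sat at the level of the controls, and the other 6 were above it. It rose by 1.09 ± 0.15 in *SMARCA1* knockdown (2.13-fold, edgeR adjusted p 0.00036) and by 0.44 ± 0.15 in *SMARCA4* knockdown (1.36-fold, edgeR adjusted p 0.032). The latter call was lost without control replicate 1 (0.37, edgeR adjusted p 0.18), without control replicate 2 (0.59, 0.054), without replicate 1 of *SMARCA4* siRNA B (0.41, 0.063) and with siRNA A alone (0.13, 0.6).

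*DDIT4* was at 23.3 and 21.2 CPM in the controls, 22.9 and 21.2 with *SMARCA4* siRNA A, 20.4 and 16.8 with siRNA B, 35 and 30.3 with *SMARCA1* siRNA A, and 33.3 and 29.6 with siRNA C. The 4 *SMARCA1* libraries were above all 6 others, and the *SMARCA4* libraries were at or below the controls. The log2 fold change was -0.14 in *SMARCA4* knockdown (95% interval -0.41 to 0.14) and 0.53 ± 0.12 in *SMARCA1* knockdown (1.44-fold, edgeR adjusted p 0.0064). Without control replicate 2 the *SMARCA1* value was 0.48 and missed the threshold (edgeR adjusted p 0.065).

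Counted together, 5 of the 10 genes were called in *SMARCA4* knockdown, all higher, where 45.1% of tested genes were called, 22.8% higher and 22.3% lower. In *SMARCA1* knockdown 7 of 10 were called, all higher, against 46.8% of tested genes, 23.8% higher and 23% lower. The share called in *SMARCA4* knockdown was thus near that of all genes, and none of the 10 was called lower in either knockdown. The median log2 fold change of the 10 was 0.33 and 0.71, and over all tested genes it was 0.00 in each. These counts and medians include *ASNS*, whose counts cannot be read as its level. Every knockdown library was above both controls for 4 members with *SMARCA4* siRNAs and for 6 with *SMARCA1* siRNAs, which held for 29.5% and 29.1% of tested genes.

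**Figure D2:**
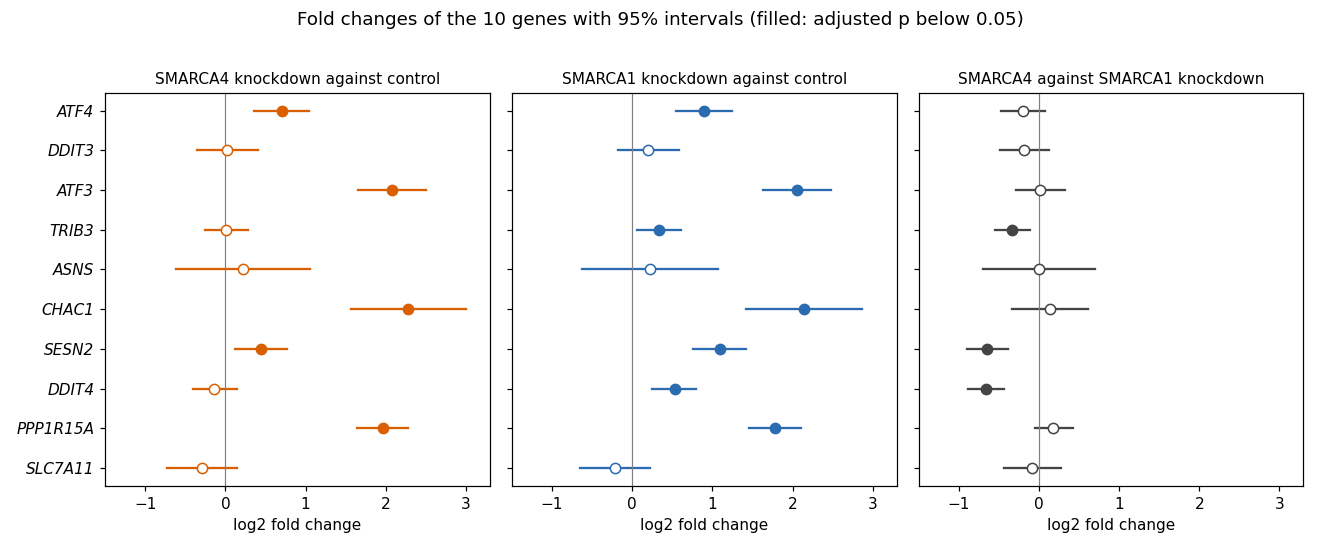
Log2 fold change (x axis) of each of the 10 genes (y axis) in *SMARCA4* knockdown against control, *SMARCA1* knockdown against control and *SMARCA4* against *SMARCA1* knockdown, with 95% intervals as lines and filled points for an edgeR adjusted p below 0.05. *ATF3*, *CHAC1* and *PPP1R15A* sit near 2 in the first and second panels, and *SESN2*, *DDIT4* and *TRIB3* lie below 0 in the last.

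The difference between the knockdowns was tested directly. The level of *DDIT4* with *SMARCA4* siRNAs was below that with *SMARCA1* siRNAs by a log2 difference of -0.66 ± 0.10 (edgeR adjusted p 0.00094), *SESN2* by -0.65 ± 0.11 (edgeR adjusted p 0.0022) and *TRIB3* by -0.33 ± 0.10 (edgeR adjusted p 0.028). These were the 3 members called of 10, all lower, where 35.4% of tested genes were called and 19.1% were lower. *DDIT4* was the 1 member whose libraries did not overlap between the knockdowns, which held in that direction for 13.8% of tested genes. The *TRIB3* difference lost its call, with adjusted p from 0.052 to 0.12, when any of 6 single libraries was left out (either control, replicate 2 of either *SMARCA4* siRNA, or either *SMARCA1* siRNA C library). The remaining differences did not pass the test. The interval was -0.47 to 0.07 for *ATF4*, -0.34 to 0.61 for *CHAC1* and -0.05 to 0.42 for *PPP1R15A*. Without replicate 2 of *SMARCA1* siRNA A, *ATF4* was lower in *SMARCA4* knockdown by -0.30 (edgeR adjusted p 0.02), and without replicate 1 of that siRNA *PPP1R15A* was higher by 0.27 (edgeR adjusted p 0.049).

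Each siRNA was also compared with the control alone, since siRNAs against 1 target differ in sequence. *SMARCA4* siRNA A called 4 members and siRNA B 5, against 33.2% and 45% of tested genes. *SMARCA1* siRNA A called 6 and siRNA C 7, against 34.8% and 45.3%. *ATF4*, *ATF3*, *CHAC1* and *PPP1R15A* were the 4 called with every siRNA. For *CHAC1* the log2 fold changes were 1.87 and 2.69 with *SMARCA4* siRNAs A and B and 1.53 and 2.76 with *SMARCA1* siRNAs A and C. For *ATF4* they were 0.56, 0.84, 0.61 and 1.18 in the same order. With siRNA C alone, and so without the pair of libraries that differed most, the *SMARCA1* changes were larger for these genes (*ATF3* 2.40, *PPP1R15A* 2.07).

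**Figure D3:**
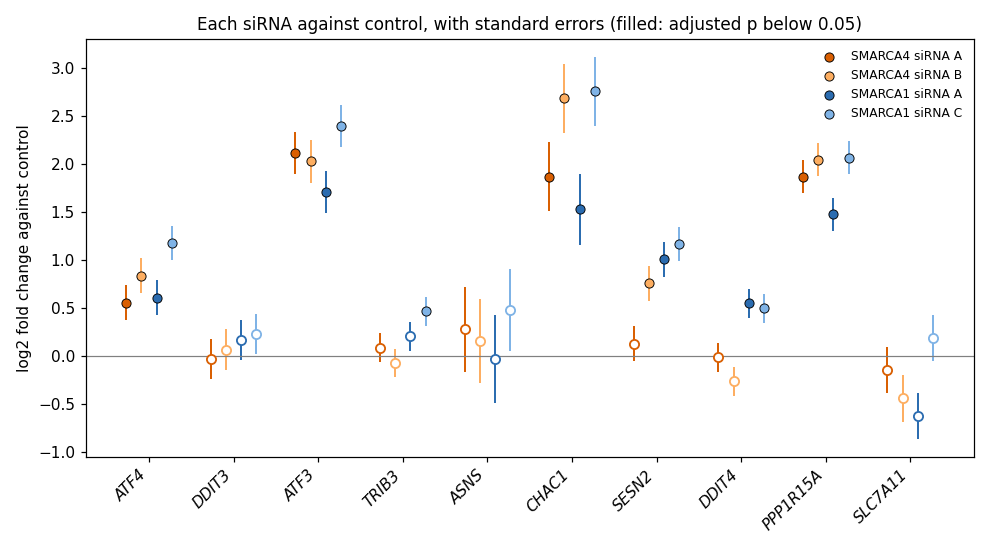
Log2 fold change against control (y axis) of the 10 genes (x axis) with each of the 4 siRNAs, with standard errors as lines and filled points for an edgeR adjusted p below 0.05. *CHAC1* runs from 1.53 to 2.76 over the siRNAs, *DDIT4* is at -0.01 and -0.26 with *SMARCA4* siRNAs and at 0.55 and 0.50 with *SMARCA1* siRNAs, and *DDIT3* runs from -0.03 to 0.23.

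Between the *SMARCA4* siRNAs, *SESN2* was the 1 member called, lower with siRNA A by -0.64 ± 0.16 (edgeR adjusted p 0.049), where 6.2% of tested genes were called and 3.17% were lower. That call did not hold when either control, any *SMARCA4* library or either *SMARCA1* siRNA C library was left out. Between the *SMARCA1* siRNAs, edgeR called no member and 2 genes in all (0.0118%), *ACKR3* and *CEMIP*, which are named here after their values were seen. At an unadjusted p below 0.05, 5 members were lower with siRNA A (*ATF4*, *ATF3*, *CHAC1*, *PPP1R15A* and *SLC7A11*), as 17.1% of tested genes differed in either direction. DESeq2 called 4 of these, *ATF3*, *CHAC1*, *PPP1R15A* and *SLC7A11*, and 516 of the 16899 tested genes in all. Among the *SMARCA1* libraries, replicate 2 of siRNA A was the lowest for 7 of the 10 genes and the siRNA C libraries were the highest for 8. Among the *SMARCA4* libraries a replicate 2 was the lowest for each of the 10 genes (siRNA A for 6, siRNA B for 4) and a replicate 1 the highest for each (5 with either siRNA). These orders were not counted over all tested genes. Over those genes the deviations of same-numbered libraries of *SMARCA4* siRNAs A and B correlated at 0.362. Whether the order is particular to the 10 was not tested.

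Short stretches of the RefSeq promoter windows (250 bases before to 50 bases after the start, GRCh38.p14) are shown for the members that rose most in both knockdowns, because they hold letters that bZIP factors of this response are known to bind. Capitals mark the match, which is read on either strand, and each stretch is 5′ to 3′ on the plus strand.
ATF3: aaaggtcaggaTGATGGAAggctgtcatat
CHAC1: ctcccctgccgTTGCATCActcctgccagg
PPP1R15A: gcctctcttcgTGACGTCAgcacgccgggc
The *ATF3* stretch is chr1:212565205-212565234 and its match lies 191 to 184 bases before the start. The *CHAC1* stretch is chr15:40953251-40953280, 209 to 202 bases before the RefSeq start and inside the gene as the count annotation has it, which begins at 40952962. These hold the core of the C/EBP-ATF response element, TGATGNAA or TTNCATCA on the other strand, which was in 3.62% of 35116 windows. The window of *ASNS* held it too. The *PPP1R15A* stretch is chr19:48872352-48872381, 58 to 51 bases before the start, and holds the cAMP response element TGACGTCA, which was in 1.85% of windows. The AP-1 letters TGANTCA were in the window of *DDIT3* and in 7.71% of windows. The core of the interferon-stimulated response element was in none of the 9 members with a window and in 3.57% of windows. *SLC7A11* had no window in the table used. A match is a string of letters and not evidence of binding in these cells.

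The kinases upstream of ATF4 differed from each other. *EIF2AK2* encodes PKR, the kinase activated by viral and other duplex RNA, and is itself an interferon-stimulated gene. It was at 147.0 and 139.3 CPM in the controls, 514.5 and 514.9 with *SMARCA4* siRNA A, 437.9 and 568.1 with siRNA B, 274.8 and 462.9 with *SMARCA1* siRNA A, and 360.2 and 373.8 with siRNA C. All knockdown libraries were above the controls. It rose by 1.83 ± 0.20 with *SMARCA4* siRNAs (3.55-fold, edgeR adjusted p 8.2e-05) and by 1.36 ± 0.19 with *SMARCA1* siRNAs (2.57-fold, edgeR adjusted p 0.00044), and the difference of 0.47 ± 0.15 passed the test (edgeR adjusted p 0.033).

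*EIF2AK3* encodes PERK, the kinase of the endoplasmic reticulum. It was at 47.5 and 43.2 CPM in the controls, 77.9 and 58.5 with *SMARCA4* siRNA A, 79.0 and 59.1 with siRNA B, 39.8 and 46.3 with *SMARCA1* siRNA A, and 74.6 and 76.2 with siRNA C. The *SMARCA1* siRNA A libraries were at the level of the controls and the other 6 were higher. It rose by 0.60 ± 0.15 in *SMARCA4* knockdown (edgeR adjusted p 0.0097), and its 0.33 in *SMARCA1* knockdown (95% interval -0.01 to 0.67) did not pass. *EIF2AK4*, the amino acid sensor GCN2, had 0.17 (-0.04 to 0.37) and 0.08 (-0.13 to 0.29), and *EIF2AK1*, the haem-regulated kinase, 0.05 (-0.14 to 0.24) and -0.02 (-0.21 to 0.17).

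**Figure D4:**
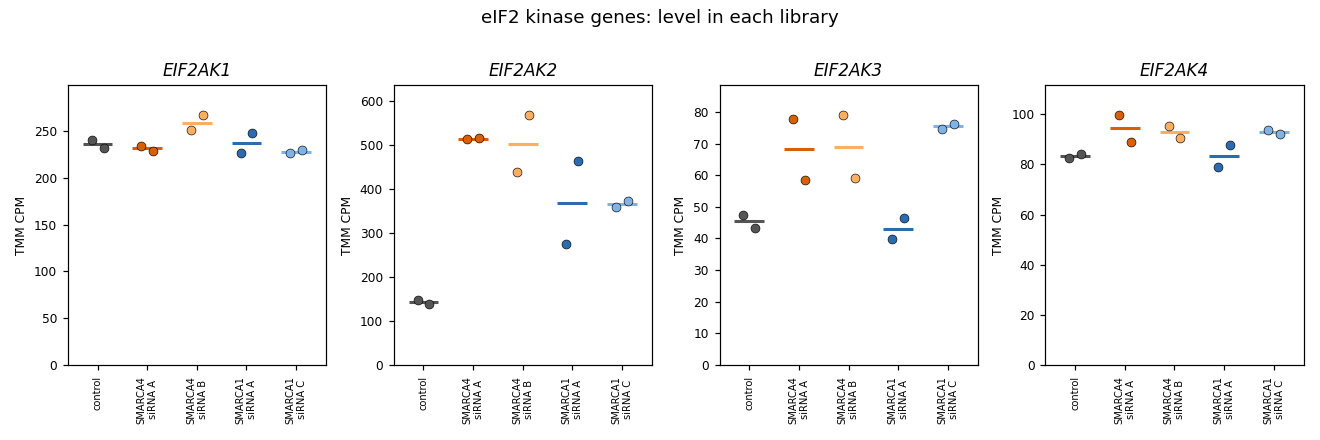
Level of the 4 eIF2 kinase genes (y axis, TMM-scaled CPM, each panel from 0) in the 10 libraries, by control and siRNA (x axis), with points for libraries and a bar for the mean of the 2. *EIF2AK2* is at 139.3 and 147.0 CPM in the controls and at 274.8 or more in every knockdown library, while *EIF2AK1* stays between 226.6 and 267.1 in all 10.

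The counts in the gene lists that follow stand against the shares over all tested genes, 22.8% higher and 22.3% lower in *SMARCA4* knockdown and 23.8% higher and 23% lower in *SMARCA1* knockdown. Of the 13 genes of the kinases, eIF2, eIF2B and the constitutive phosphatase cofactor, 2 were higher and 3 lower in *SMARCA4* knockdown, and 2 were higher and 1 lower in *SMARCA1* knockdown (medians 0.03 and 0.08). That is 38.5% and 23.1% called, below the 45.1% and 46.8% of all tested genes, and 3 were called in *SMARCA4* knockdown without either control and 6 in *SMARCA1* knockdown without replicate 2 of siRNA A. The gamma subunit of eIF2, *EIF2S3*, fell by 0.74 and 0.61 (edgeR adjusted p 0.00013 and 0.00046). The alpha subunit *EIF2S1*, which the kinases phosphorylate, fell by 0.44 in *SMARCA4* knockdown (edgeR adjusted p 0.0036), and the beta subunit *EIF2S2* was higher by 0.67 in *SMARCA1* knockdown (edgeR adjusted p 0.0026). No single direction was seen over the list.

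Of 8 genes for partners and cofactors of ATF4, 7 were higher and none lower in each knockdown, where 22.8% and 23.8% of tested genes were higher, with medians of 0.99 and 1.24. With 1 library left out 6 to 7 were called. With *SMARCA4* siRNA A alone 5 were called and with siRNA B alone 7, where 33.2% and 45% of tested genes were called. Between these siRNAs 4 of the 8 differed, where 6.2% of tested genes were called. *CEBPD* was higher with siRNA A by 1.25 (edgeR adjusted p 0.003), and *ATF5*, *CEBPB* and *NUPR1* were lower with it. This count of 4 became 1 without replicate 2 of either *SMARCA4* siRNA and 2 without replicate 1 of siRNA B, either control or either *SMARCA1* siRNA C library. *NUPR1*, a stress cofactor that ATF4 induces, was at 30.6 and 35.2 CPM in the controls, 112.9 and 70.3 with *SMARCA4* siRNA A, 207.6 and 175.4 with siRNA B, 126.1 and 71.8 with *SMARCA1* siRNA A, and 157.1 and 155.2 with siRNA C. It rose by 2.01 ± 0.25 and 1.92 ± 0.25 (edgeR adjusted p 0.00019 and 0.00029). *CEBPD* rose by 1.58 in *SMARCA4* knockdown (edgeR adjusted p 1.9e-05) and *JDP2*, a repressor related to ATF3, by 1.97 in *SMARCA1* knockdown (edgeR adjusted p 0.0002). *CEBPG*, the usual C/EBP partner of ATF4 on amino acid genes, did not pass, at -0.15 (95% interval -0.38 to 0.08) and 0.03 (-0.20 to 0.26).

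The amino acid genes, classical targets of ATF4, did not rise as a block. Of 12 genes for serine, one-carbon and non-essential amino acid synthesis, 2 were higher and 7 lower in *SMARCA4* knockdown (median -0.47), and 3 were higher and 2 lower in *SMARCA1* knockdown (median -0.11). That is 75% and 41.7% called against 45.1% and 46.8% of all tested genes. The 9 called in *SMARCA4* knockdown became 5 without control replicate 1 and 4 without control replicate 2. The 5 in *SMARCA1* knockdown became 3 without control replicate 1 or replicate 2 of siRNA C and 2 without control replicate 2. *MTHFD2*, a mitochondrial one-carbon enzyme, had a mean of 103.6 ± 6.43 CPM (SD, n = 2) in the controls and 56.3 ± 6.99 (n = 4) in *SMARCA4* knockdown, and fell by 0.88 (edgeR adjusted p 0.00017). *PSAT1*, of serine synthesis, fell by 0.60 (edgeR adjusted p 0.001). *CTH*, which makes cysteine, rose in both knockdowns by 0.84 and 1.07 (edgeR adjusted p 0.00085 and 0.00028), and *PSPH* by 0.32 in *SMARCA4* knockdown (edgeR adjusted p 0.035). *GPT2* rose by 1.57 in *SMARCA1* knockdown (edgeR adjusted p 0.00051), *ALDH18A1* fell by 0.31 there (edgeR adjusted p 0.012) and *ALDH1L2*, with 84 counts over all libraries, fell by 2.02 (edgeR adjusted p 0.0045).

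Among 8 amino acid transporters, 2 were higher and 2 lower in *SMARCA4* knockdown, and 4 were higher and 1 lower in *SMARCA1* knockdown (medians 0.10 and 0.68), 50% and 62.5% called against 45.1% and 46.8% of all tested genes. The 5 called in *SMARCA1* knockdown became 2 and 3 without control replicate 1 and 2. The 4 in *SMARCA4* knockdown became 2 with siRNA A alone, where 33.2% of tested genes were called. *SLC3A2*, the heavy chain that *SLC7A11* and *SLC7A5* need at the membrane, rose by 0.74 and 1.13 (edgeR adjusted p 0.0081 and 0.00098). *SLC7A5*, scarce at 0.964 CPM in the controls, rose by 1.45 in *SMARCA1* knockdown (edgeR adjusted p 0.0094), and *SLC6A9*, a glycine transporter, by 1.19 in *SMARCA4* knockdown (edgeR adjusted p 0.0027). *SLC7A1*, for cationic amino acids, fell by 0.72 and 0.34 (edgeR adjusted p 0.00096 and 0.04), and *SLC43A1* fell by 0.80 in *SMARCA4* knockdown (edgeR adjusted p 0.0013).

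Of 18 cytosolic aminoacyl-tRNA synthetases, which charge tRNAs, 3 were higher and 7 lower in *SMARCA4* knockdown, and 8 were higher and 5 lower in *SMARCA1* knockdown (medians -0.06 and 0.21). That is 55.6% and 72.2% called against 45.1% and 46.8% of all tested genes. Without control replicate 1 the 10 called in *SMARCA4* knockdown became 4 and the 13 in *SMARCA1* knockdown became 6. With *SMARCA4* siRNA A alone 6 were called, where 33.2% of tested genes were called. *WARS1*, which interferon also induces, rose by 1.06 and 1.84 (edgeR adjusted p 0.0015 and 0.00012), and *CARS1* by 0.67 and 1.14 (edgeR adjusted p 0.012 and 0.00077). *LARS1* fell by 0.73 and 1.04 (edgeR adjusted p 0.0011 and 0.0002). *IARS1* fell by 0.98 in *SMARCA4* knockdown (edgeR adjusted p 4.9e-05) and *QARS1* by 0.51 in *SMARCA1* knockdown (edgeR adjusted p 0.0019).

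The knockdowns were also compared with each other on these lists. In *SMARCA4* against *SMARCA1* knockdown, 6 of 12 synthesis genes, 3 of 8 transporters and 10 of 18 synthetases were lower, and 0, 0 and 1 were higher, where 19.1% of tested genes were lower and 16.3% higher. The medians were -0.32, -0.29 and -0.30. With 1 library left out 5 to 7, 2 to 5 and 6 to 13 genes of these lists were called. The 3 transporters became 5 without replicate 2 of *SMARCA1* siRNA A, and the 11 synthetases became 6 without replicate 2 of either *SMARCA4* siRNA or either *SMARCA1* siRNA C library.

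**Figure D5:**
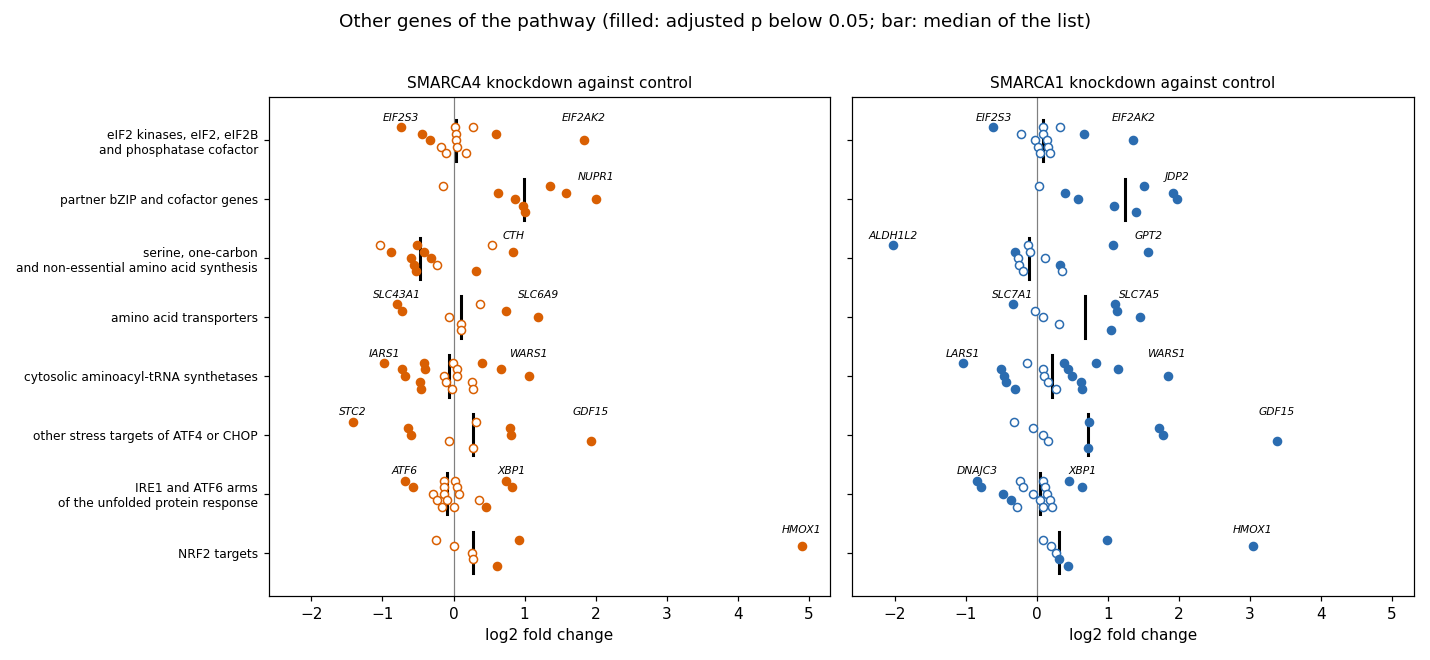
Log2 fold change against control (x axis) of the tested genes in 8 lists of the pathway (y axis), for *SMARCA4* knockdown and *SMARCA1* knockdown, with filled points for an edgeR adjusted p below 0.05, black bars for list medians and symbols on the end genes that passed. The partner bZIP and cofactor genes have their medians right of 0 in both panels (0.99 and 1.24), and the serine and one-carbon genes have their median at -0.47 with *SMARCA4* siRNAs.

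Of 10 other stress targets of ATF4 or CHOP, 9 were tested (*FGF21* had 9 counts in all). In *SMARCA4* knockdown 3 were higher and 3 lower, and in *SMARCA1* knockdown 5 were higher and none lower (medians 0.28 and 0.72), 66.7% and 55.6% called against 45.1% and 46.8% of all tested genes. Without control replicate 2, 3 were called in *SMARCA4* knockdown. *GDF15*, a secreted stress hormone, was at 23.3 and 20.1 CPM in the controls, 83.0 and 49.5 with *SMARCA4* siRNA A, 150.2 and 55.9 with siRNA B, 271.4 and 117.0 with *SMARCA1* siRNA A, and 236.7 and 288.2 with siRNA C. All knockdown libraries were above the controls, and replicates differed by more than 2-fold with 2 of the siRNAs. It rose by 1.93 ± 0.44 and 3.38 ± 0.48 (edgeR adjusted p 0.0057 and 0.00044), and the difference of -1.45 ± 0.33 passed the test (edgeR adjusted p 0.0078). *CDKN1A*, the cell cycle inhibitor p21, rose by 0.81 and 1.77 (edgeR adjusted p 0.018 and 0.00043). *STC2*, a secreted glycoprotein, fell by 1.42 in *SMARCA4* knockdown (edgeR adjusted p 3e-05), as did *VEGFA* by 0.64 (edgeR adjusted p 0.0092). Between the knockdowns, 7 of the 9 were lower in *SMARCA4* knockdown and none was higher, where 19.1% of tested genes were lower and 16.3% higher. In that comparison 6 to 7 were called with 1 library left out.

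The other arms of the unfolded protein response were mixed. Of 17 genes of the IRE1 and ATF6 arms, 3 were higher and 2 lower in *SMARCA4* knockdown, and 2 were higher and 4 lower in *SMARCA1* knockdown (medians -0.09 and 0.05). The shares called, 29.4% and 35.3%, were below the 45.1% and 46.8% of all tested genes. The 6 called in *SMARCA1* knockdown became 2 without either control and 3 without replicate 1 of siRNA C. *XBP1*, whose message IRE1 splices, rose by 0.82 and 0.64 (edgeR adjusted p 0.0015 and 0.0055) and *HERPUD1* by 0.74 and 0.45 (edgeR adjusted p 0.0018 and 0.023). In *SMARCA4* knockdown *ATF6* fell by 0.69 (edgeR adjusted p 0.0027) and the chaperone gene *HSP90B1* by 0.57 (edgeR adjusted p 0.0028). In *SMARCA1* knockdown *DNAJC3*, a PERK inhibitor, fell by 0.84 (edgeR adjusted p 0.00029) and *SEL1L* by 0.78 (edgeR adjusted p 0.0093). Gene counts do not separate spliced from unspliced *XBP1*.

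Of 7 targets of NRF2, the oxidative stress factor that also drives *SLC7A11*, 3 were higher and none lower in *SMARCA4* knockdown, and 4 were higher and none lower in *SMARCA1* knockdown (medians 0.27 and 0.31). The shares called, 42.9% and 57.1%, lay near the 45.1% and 46.8% of all tested genes. With 1 library left out 2 to 4 were called in *SMARCA4* knockdown. In *SMARCA1* knockdown it was 1 without control replicate 1, and 2 without control replicate 2 or replicate 2 of siRNA C. *HMOX1*, haem oxygenase, was at 2.43 and 1.86 CPM in the controls, 49.4 and 24.8 with *SMARCA4* siRNA A, 147.5 and 70.7 with siRNA B, 15.3 and 8.65 with *SMARCA1* siRNA A, and 23.6 and 27.6 with siRNA C. Every knockdown library was above both controls. It rose by 4.90 ± 0.47 and 3.04 ± 0.45 on the log2 scale (edgeR adjusted p 4e-05 and 0.00054). The difference between the knockdowns, 1.86 ± 0.28, passed the test (edgeR adjusted p 0.001), with higher levels in *SMARCA4* knockdown. *NQO1* rose by 0.92 and 0.99 (edgeR adjusted p 0.019 and 0.014).

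Genes with the pattern most like that of a member were ranked by the root mean square difference of their log2 CPM over the 10 libraries, after centring each gene, among 13646 genes at a mean of at least 1 CPM. For *ATF4* these were *SLC27A3*, *SLC9A3R2* and *SHC1*, each at 0.10, and the nearest member was *SESN2* at 0.27. For *CHAC1*, the member with the widest range (2.61 on the log2 scale), they were *NUPR1* at 0.23, *RILP* at 0.24 and *SYT5* at 0.24, and the nearest member was *PPP1R15A* at 0.33. Likeness is a description over libraries that share groups and depth.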

How the data were processed

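RNA of VCaP cells was sequenced as polyadenylated, strand-specific paired-end libraries. The authors used HISAT2 for alignment to GRCh38 and featureCounts with a GENCODE annotation to which *IGF1R-AS1* had been added, and deposited the raw counts per gene without normalization. The submitters' processing notes name HISAT2 2.1.0 and featureCounts 1.5.2. Depth was 23898545 to 34667965 counts per library. Intervals of counts allow for counting error alone.

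After filterByExpr (minimum count 10, minimum total 15) and TMM scaling, edgeR 4.0.16 (quasi-likelihood test) was run on all 10 libraries as 5 groups. A knockdown is the mean of its 2 siRNA groups. P-values were adjusted over all 16899 genes by Benjamini-Hochberg, and genes below 0.05 were called. SE is the absolute log2 fold change over the root of F. Code was tested on simulated data. Alternatives were DESeq2 1.42.0, RLE size factors, no filter, a minimum count of 50, a replicate block, only the libraries compared, each siRNA alone and each library left out.

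Members and gene lists were chosen with earlier results of these data known. From each list and knockdown, up to 2 called genes with the largest change in each direction were named. The 4 kinases were always named, and *FGF21*, *CEBPG*, *PPP1R15B*, *ATF5*, *CEBPB*, *SRXN1*, *ACKR3* and *CEMIP* after their values were seen. Promoter sequences are from RefSeq.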

Additional observations from a re-analysis of the deposited data

Results flagged for a closer look

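Effects that differed between knockdowns or between siRNAs of 1 target, by a test of the difference itself, were found for 3 of the 10 genes. With *SMARCA4* siRNAs *DDIT4* lay below its level with *SMARCA1* siRNAs by -0.66 on the log2 scale, with no overlap of the libraries. *SESN2* was lower by -0.65 in the same comparison. It was also lower with *SMARCA4* siRNA A than with siRNA B, by -0.64 (edgeR adjusted p 0.049), a call that did not hold in 8 of the 10 fits with a library left out (edgeR adjusted p 0.079 to 0.25). No single *SMARCA4* siRNA was tested against *SMARCA1* knockdown. *TRIB3* was lower by -0.33 in *SMARCA4* than in *SMARCA1* knockdown, a call that did not hold in 6 of the 10 fits with a library left out. No library stood apart from the other 3 of its knockdown for any of the 10 genes by Dixon's test, which was run on the groups of 4 and flags about 1 in 20 groups by chance.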

How the results depend on the processing

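The calls of *ATF4*, *ATF3*, *CHAC1* and *PPP1R15A* against control held in both knockdowns under every alternative run. Between the *SMARCA4* siRNAs, 1048 genes were called and 1674 by DESeq2 or 2352 with no filter, which called 2 members. Between the *SMARCA1* siRNAs, 2 genes were called and 516 by DESeq2 (4 members), 1276 with no filter (5 members) and 16 with the replicate block. The deviations of same-numbered libraries correlated at 0.362 between *SMARCA4* siRNAs A and B, and at 0.125 and 0.266 between these and *SMARCA1* siRNA A. The other 7 pairs of groups lay between -0.103 and 0.0484, so the numbers do not pair all groups and the block stayed an alternative. With the replicate block 7788 and 8011 genes were called in *SMARCA4* and *SMARCA1* knockdown, and no member changed its call. The causes were not tested.

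With each library left out, *SMARCA4* knockdown had 4413 to 9183 genes called (4413 without control replicate 1, 4913 without control replicate 2) and 4 to 5 members. *SMARCA1* knockdown had 4430 to 9557 (4430 and 5094 without those controls) and 5 to 8 members. *SMARCA4* against *SMARCA1* knockdown had 3683 to 8072 (3683 without *SMARCA1* siRNA C replicate 1, 3839 without *SMARCA4* siRNA B replicate 2) and 2 to 5 members, 5 without *SMARCA1* siRNA A replicate 2. *SMARCA4* siRNA A against B had 48 to 2907 genes and 0 to 2 members, and *SMARCA1* siRNA A against C 0 to 1927 genes and 0 to 3 members. The siRNA comparisons rest on 2 libraries each, and their counts moved with nearly any library left out.

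Log2 values that changed sign had all missed the threshold. With single siRNAs these were *DDIT3* (-0.03, *SMARCA4* siRNA A), *TRIB3* (-0.07, *SMARCA4* siRNA B), *ASNS* (-0.03, *SMARCA1* siRNA A) and *SLC7A11* (0.19, *SMARCA1* siRNA C). *ASNS* in *SMARCA4* against *SMARCA1* knockdown was 0.00 by DESeq2, 0.01 by RLE, 0.02 with no filter and 0.00 with only the libraries compared. With libraries left out, the *SMARCA4* knockdown values ran from -0.09 to 0.21 for *DDIT3*, -0.50 to 0.01 for *SLC7A11* and -0.02 to 0.11 for *TRIB3*, and the *SMARCA1* values from -0.43 to 0.08 for *SLC7A11* and -0.09 to 0.51 for *ASNS*. Between the knockdowns they ran from -0.23 to 0.34 for *ASNS*, -0.15 to 0.18 for *ATF3*, -0.08 to 0.47 for *CHAC1* and -0.21 to 0.10 for *SLC7A11*. Between the *SMARCA4* siRNAs they ran from -0.27 to 0.38 for *ATF3*, -0.23 to 0.47 for *ASNS*, -0.23 to 0.06 for *DDIT3* and -0.41 to 0.01 for *PPP1R15A*, and between the *SMARCA1* siRNAs from -0.04 to 0.18 for *DDIT4*, -0.36 to 0.23 for *DDIT3* and -0.31 to 0.01 for *SESN2*. Counts for the gene lists moved by over 1.5 times, or from or to none called, in 124 cases with a library left out. They moved by less or not at all in 426. The smallest change against control called for a member was 0.34 (*TRIB3*).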
